A study of Rattus norvegicus with 8 samples.

Results

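The genes described here are Vip, its receptor genes Vipr1 and Vipr2, and 7 genes that make other transmitters of enteric neurons: Adcyap1, Tac1, Nos1, Chat, Npy, Gal and Cartpt. They are 10 of the 52753 loci in the table, and each symbol named exactly 1 locus. They were chosen by name around Vip, which was selected on its higher level in the CF libraries of these same data, and the question was whether other neuropeptide or receptor genes shared that difference. The difference in Vip therefore chose the list, and the CF and WT values of all 10 genes are given as a description, without a p-value. Sprague Dawley rats of postnatal day 21 gave the tissue, the entire small intestine. There were 4 libraries of rats labelled CF, for cystic fibrosis, the disease of a defective chloride and bicarbonate channel CFTR, and 4 libraries of wild-type (WT) rats. CF allele, sex and litter are not in the labels, and neither is the number of animals behind the libraries of a group. The p-values therefore measure the spread between these libraries, which may be technical.

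Vasoactive intestinal peptide (VIP) is released by enteric neurons, mostly secretomotor and inhibitory motor neurons. It binds receptors coupled to the stimulatory G protein, which raises cyclic AMP (cAMP). In the epithelium cAMP opens CFTR and drives chloride and fluid secretion, and in smooth muscle it causes relaxation. Vip is itself a gene that cAMP and neuronal activity induce through a cAMP response element (CRE). Because the samples are whole tissue, a difference in the number of cells of a type and a difference in RNA per cell cannot be told apart.

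The promoter windows of Vip and Gal are shown because these were the members whose CF libraries all lay above all WT libraries. They are RefSeq sequences of build GRCr8, from 250 bases before to 50 bases after the annotated start, and capitals mark the short CRE motif TGACG found by a search of both strands. The Vip window is chr1:44470230-44470529 on the plus strand and the Gal window is chr1:210084523-210084822 on the minus strand.
Vip: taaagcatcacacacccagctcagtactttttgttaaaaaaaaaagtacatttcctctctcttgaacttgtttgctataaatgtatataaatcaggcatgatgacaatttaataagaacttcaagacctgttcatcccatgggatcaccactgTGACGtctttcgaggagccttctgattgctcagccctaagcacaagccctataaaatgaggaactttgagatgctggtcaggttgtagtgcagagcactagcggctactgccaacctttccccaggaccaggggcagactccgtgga
Gal: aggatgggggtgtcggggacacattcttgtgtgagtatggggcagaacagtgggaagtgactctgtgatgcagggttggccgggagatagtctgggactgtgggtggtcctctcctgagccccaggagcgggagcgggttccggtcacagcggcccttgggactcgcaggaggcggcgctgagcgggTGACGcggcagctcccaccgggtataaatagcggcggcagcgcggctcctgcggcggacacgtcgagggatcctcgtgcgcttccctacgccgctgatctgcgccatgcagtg
The match begins 97 bases before the annotated start of Vip and 63 bases before that of Gal. TGACG or its reverse complement was in 7 of the 10 members' windows, those of Vip, Vipr1, Tac1, Nos1, Chat, Gal and Cartpt, and in 21.2% of 33469 windows of the same length. The full site TGACGTCA, which contains the short motif, was in 2 members, Nos1 and Cartpt, and in 1.83% of windows. The AP-1 site TGANTCA, where N is any base, was in 1 member, Nos1, and in 7.33% of windows. These matches are a description of letters.

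The libraries held 18.6 to 20.9 M assigned fragments in CF and 15.3 to 20.8 M in WT. The marker genes of the tissue were present in all 8 libraries, with summed FPKM (fragments scaled to transcript length and library depth, by the authors) of 4944 to 13180 in CF and 5987 to 9684 in WT for 6 epithelial genes. For 13 enteric neuron genes the sums were 36.8 to 75.3 FPKM in CF and 45.8 to 74.6 FPKM in WT, and none of the 13 was at 0. CF library 0 had the lowest epithelial sum of the 8 libraries, and values that rest on it are given without it below. Cftr lay between 92.0 and 107 CPM in CF libraries and between 74.0 and 107 CPM in WT, which does not check the labels because the allele is not given.

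Vip (chromosome 1, 42169500 to 42177579, Rnor_6.0) was higher in every CF library than in any WT library. In CPM (fragments scaled to library size) it was at 68.5, 47.9, 48.8 and 51.3 in CF libraries 0 to 3 and at 23.2, 26.4, 23.3 and 17.1 in WT libraries 0 to 3. The lowest CF library was at 47.9 CPM and the highest WT library at 26.4 CPM, so the groups were well apart. These values rest on 850 to 1420 fragments per library in CF and 250 to 527 in WT. The fold change, CF over WT, was 2.40 with a 95% interval of 1.88 to 3.07, and its log2 value was 1.26 (SE 0.16). Without CF library 0, the highest of the 8, the log2 fold change was 1.13. The authors' group FPKM was 42.6 in CF and 18.0 in WT.

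**Figure D1:**
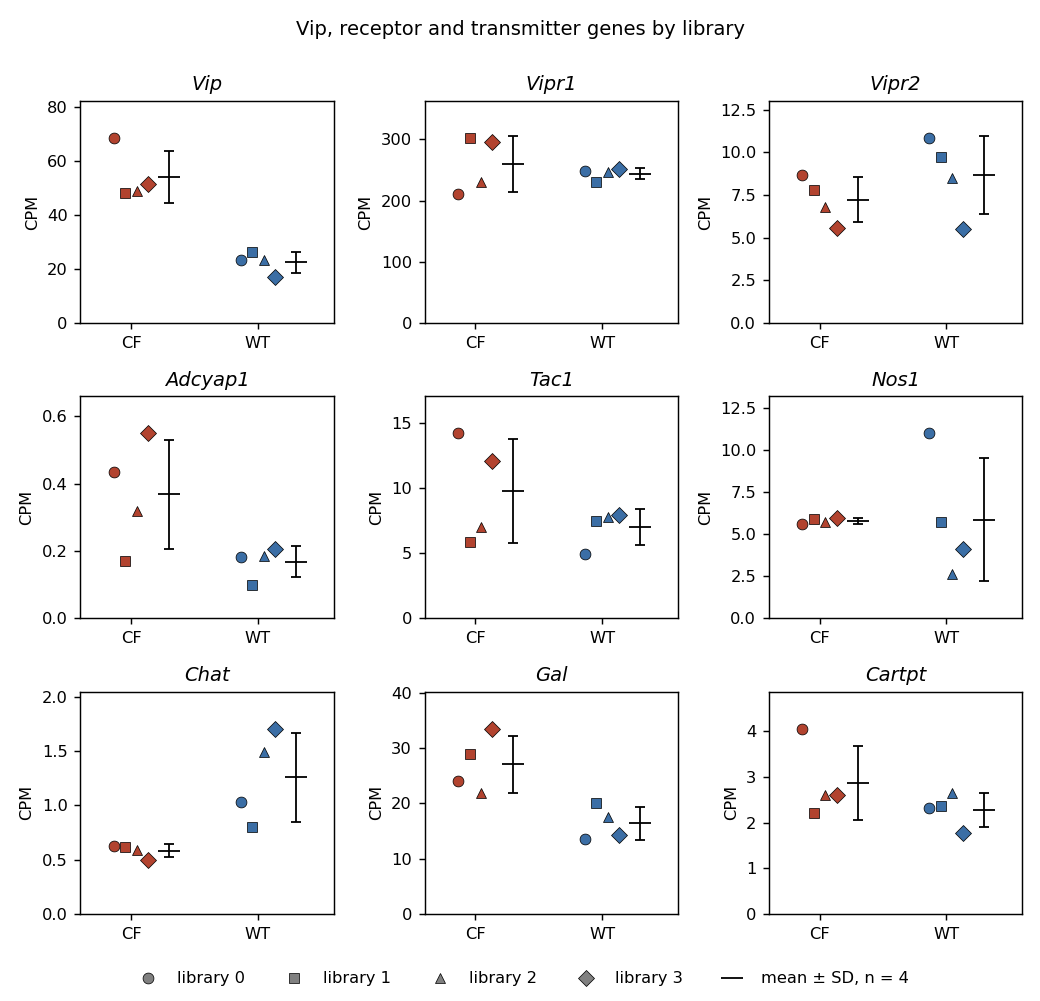
CPM of the 9 members with any fragments, 1 panel per gene, with CF libraries on the left and WT libraries on the right of each panel; each point is a library, its shape gives the library number within the group, and the bar is the mean ± SD of 4 libraries. Vip and Gal points do not overlap between groups and are higher in CF, Chat points do not overlap and are lower in CF, and the other 6 panels overlap.

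The groups overlapped for both receptor genes. Vipr1 (chromosome 8, 130280761 to 130313431) encodes VPAC1, the VIP and PACAP receptor of the epithelium. It was at 211, 302, 231 and 295 CPM in CF libraries 0 to 3 and at 248, 230, 247 and 251 CPM in WT libraries 0 to 3. The CF libraries lay on both sides of the narrow WT range, and the log2 fold change was 0.09 with an interval of −0.20 to 0.39. Vipr2 (chromosome 6, 143937983 to 144008072) encodes VPAC2, the receptor known from smooth muscle. It was at 8.68, 7.79, 6.81 and 5.58 CPM in CF libraries 0 to 3 and at 10.8, 9.73, 8.47 and 5.53 CPM in WT libraries 0 to 3. The groups overlapped, with a log2 fold change of −0.26 (interval −0.75 to 0.22).

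Gal (chromosome 1, 218652916 to 218657925), which encodes the neuropeptide galanin, was the other member with all CF libraries above all WT libraries. It was at 24.1, 28.9, 21.9 and 33.5 CPM in CF libraries 0 to 3 and at 13.6, 20.1, 17.6 and 14.3 CPM in WT libraries 0 to 3. The groups nearly met, since the lowest CF library was at 21.9 and the highest WT library at 20.1 CPM. The fold change was 1.65 (interval 1.27 to 2.14), and the log2 fold change was 0.72 (SE 0.17). Set against each other within libraries, Vip exceeded Gal by 1.502, 0.73, 1.15 and 0.61 log2 CPM in CF libraries 0 to 3 and by 0.77, 0.39, 0.40 and 0.25 in WT libraries 0 to 3. These within-library differences overlapped between the groups. In CPM Gal was highest in CF library 3, where Vip was at 51.3 CPM, and Vip was highest in CF library 0, where Gal was at 24.1 CPM. The order of the CF libraries for Gal depended on the scale. By the authors' FPKM, Gal was highest in CF library 1, at 38.95, and was at 34.87 in CF library 3.

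Tac1 and Cartpt were high in some CF libraries and not in others. Tac1 (chromosome 4, 33638708 to 33646819) encodes substance P and neurokinin A, the tachykinins of excitatory motor neurons. It was at 14.2, 5.87, 7.02 and 12.1 CPM in CF libraries 0 to 3 and at 4.99, 7.48, 7.78 and 7.92 CPM in WT libraries 0 to 3. CF libraries 0 and 3 lay above all WT libraries, while CF libraries 1 and 2 lay inside the WT range. The log2 fold change was 0.48 (interval −0.15 to 1.11), and 0.25 without CF library 0. Cartpt (chromosome 2, 30125248 to 30127379), which encodes the CART peptide, was at 4.05, 2.20, 2.61 and 2.59 CPM in CF libraries 0 to 3 and at 2.31, 2.36, 2.65 and 1.77 CPM in WT libraries 0 to 3. Only CF library 0 was above the WT range, and the log2 fold change was 0.33 (interval −0.22 to 0.87), or 0.11 without that library. Tac1 rests on sums of 774 fragments in CF and 514 in WT, and Cartpt on 224 in CF and 168 in WT.

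In CPM, Chat was lower in every CF library than in any WT library. Chat (chromosome 16, 8576863 to 8686131) encodes choline acetyltransferase, which makes acetylcholine. It was at 0.627, 0.621, 0.585 and 0.499 CPM in CF libraries 0 to 3 and at 1.03, 0.803, 1.49 and 1.71 CPM in WT libraries 0 to 3. All CF libraries lay below all WT libraries, with a fold change of 0.468 (interval 0.287 to 0.761) and a log2 fold change of −1.10 (SE 0.32). The counts were low, with 10 to 13 fragments per library in CF and 16 to 32 in WT. On the authors' FPKM scale the groups overlapped by little, since CF library 0 was at 0.175 and WT library 1 at 0.172. Slc5a7, the choline transporter of cholinergic neurons, did not pass the test, with a log2 fold change of −0.20 (SE 0.27).

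Nos1 (chromosome 12, 44213942 to 44520341, a span that also holds Fbxo21) encodes neuronal nitric oxide synthase of inhibitory motor neurons. It was at 5.59, 5.87, 5.69 and 5.93 CPM in CF libraries 0 to 3 and at 11.0, 5.72, 2.65 and 4.10 CPM in WT libraries 0 to 3. The CF libraries were close together inside a wide WT range, and the log2 fold change was −0.02 with an interval of −0.82 to 0.78. Leaving out WT library 0 gave 0.47.

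Adcyap1 and Npy stayed below the filter on low counts. Adcyap1 (chromosome 9, 121706978 to 121725716) encodes PACAP, the peptide closest to VIP, which acts on the same receptors. It had 9, 3, 6 and 11 fragments in CF libraries 0 to 3 and 3, 2, 4 and 3 in WT libraries 0 to 3, sums of 29 in CF and 12 in WT. CF library 1, with 3 fragments, lay inside the WT range, so the groups overlapped in fragments and in CPM. On the authors' FPKM scale they were narrowly apart, at 0.145 to 0.254 in CF and 0.0559 to 0.126 in WT. On these few fragments the log2 fold change was 1.15 by edgeR with no filter on low counts and 1.16 by DESeq2. Neither fit called Adcyap1. Npy (chromosome 4, 79573997 to 79581208), which encodes neuropeptide Y, was listed at 0 in all 8 libraries. A listing near 0 in this table is not evidence that a gene is silent, since Hprt1, a gene that most cells use, was listed with 0 to 5 fragments per library.

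Of the 10 members, 8 passed the filter on low counts and 1 of these, Vip, passed an adjusted p of 0.05 in edgeR's quasi-likelihood test over all loci. That is the case for 0.165% of the 16941 tested loci, 0.136% with a higher and 0.0295% with a lower level in CF. Since the Vip difference chose the list, nothing is read from that count. Of the 7 other tested members none passed by edgeR or limma-voom and 2, Gal and Chat, were under an unadjusted p of 0.05. Over all tested loci 15.1% were under that unadjusted threshold, 7.94% higher and 7.21% lower in CF. Gal was called by DESeq2 and by edgeR with no filter on low counts, with log2 fold changes of 0.74 and 0.76. Those fits called 3.1% and 1.38% of loci in either direction, with 2.22% and 0.988% higher and 0.876% and 0.392% lower in CF. The Vip call was lost when WT library 1, 2 or 3 was left out, although its log2 fold change was then 1.35, 1.28 and 1.15. Leaving aside Vip, which was selected on its difference, the groups did not overlap in CPM for 2 of the 7 others, Gal above and Chat below. Over all tested loci 8.77% did not overlap, 4.86% higher and 3.91% lower in CF, and with 7 genes chosen in view of these data nothing is read from the count. Of the 7 others 4 had a positive and 3 a negative log2 fold change, with a median of 0.09, where the median over all tested loci was −0.01. The intervals of 5 of the 7 held 0, and the exceptions were Gal and Chat.

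**Figure D2:**
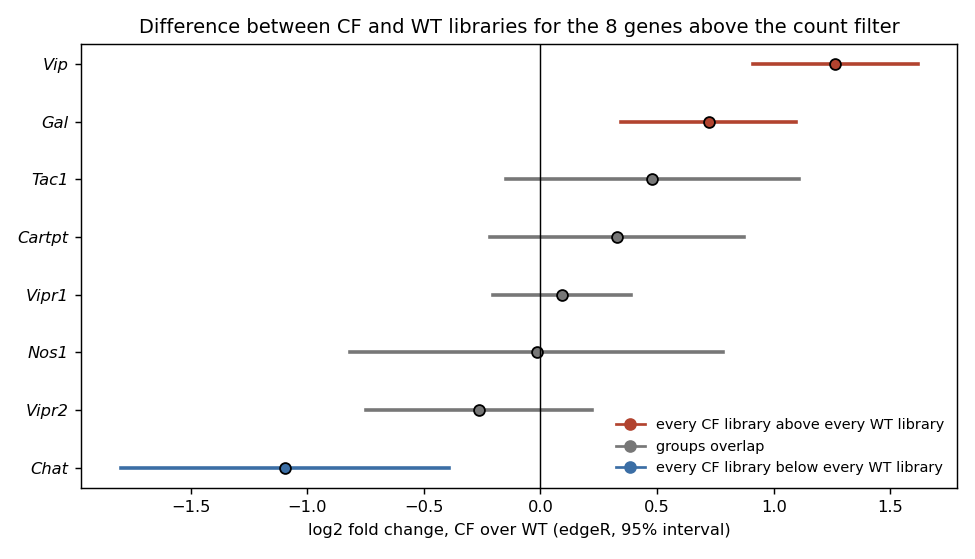
Log2 fold change, CF over WT, from edgeR for the 8 members above the count filter; points are estimates, lines are 95% intervals, and colour marks whether the groups overlapped. Vip lies highest at 1.26, Gal follows at 0.72, and Chat lies lowest at −1.10.

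Transcript levels per length placed Vipr1, Gal and Vip highest. On the authors' FPKM scale Vipr1 was at 34.0 to 44.2 in CF and 31.6 to 42.8 in WT. Gal was at 34.2 to 38.9 FPKM in CF and 18.1 to 26.4 FPKM in WT, and Vip at 37.3 to 49.2 FPKM in CF and 14.2 to 22.5 FPKM in WT. In WT the ranges of Vipr1 and Gal were apart and those of Gal and Vip overlapped, whereas in CF Gal overlapped with both Vipr1 and Vip. Tac1 came next, apart from Vip in both groups, at 7.99 to 20.3 FPKM in CF and 7.60 to 10.9 FPKM in WT. Cartpt and Vipr2 followed, with overlapping ranges of 2.93 to 7.38 and 1.57 to 4.05 FPKM in CF and of 2.57 to 4.20 and 1.66 to 4.84 FPKM in WT. Nos1 was at 0.474 to 0.708 FPKM in CF and 0.325 to 1.26 FPKM in WT. Chat and Adcyap1 were lowest. Adcyap1 was above Chat by its mean in CF, at 0.203 against 0.145 FPKM with overlapping ranges, and below it in WT, at 0.0981 against 0.318 FPKM with ranges apart.

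**Figure D3:**
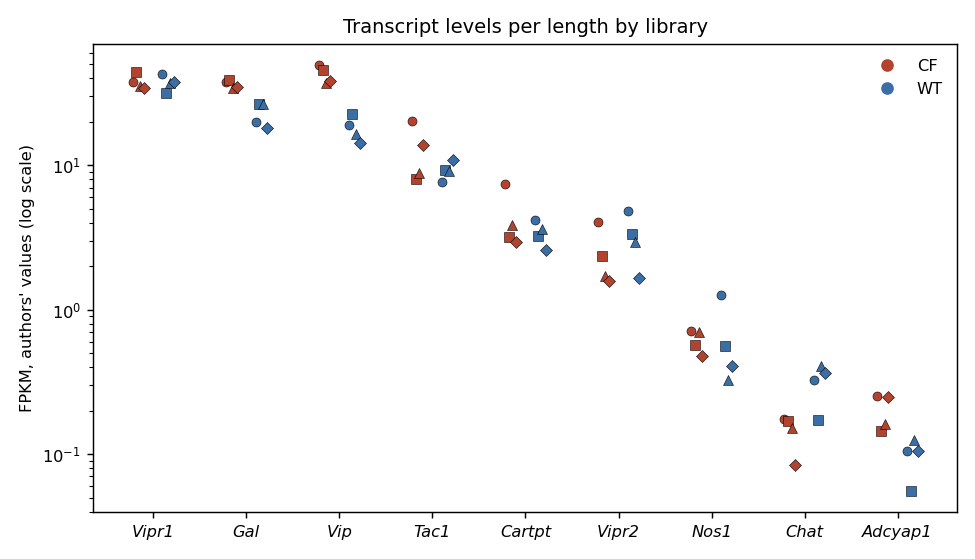
The authors' FPKM per library on a log axis for the 9 members with any fragments, ordered by their WT mean; in each gene CF libraries are on the left and WT libraries on the right, and the shape gives the library number. Vip and Gal lie closer to the level of Vipr1 in CF than in WT, and Chat and Adcyap1 lie below 1 FPKM in all libraries.

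Markers of enteric neurons were not higher in CF. Of 14 such genes 13 had a locus of their own and all 13 were tested. None passed the edgeR test or limma-voom, and 1 was called by DESeq2, which called 3.1% of all loci. At an unadjusted p of 0.05, 2 of the 13 passed, both lower in CF, a share close to the 15.1% of all loci. The log2 fold change was positive in 2 and negative in 11, with a median of −0.20, where that of all loci was −0.01. Uchl1, a ubiquitin hydrolase of neurons, was at 14.4 ± 1.95 CPM in the CF libraries and 14.4 ± 3.31 in the WT libraries (SD, n = 4 each). Prph, which encodes the neuronal filament peripherin, was at 19.0 ± 2.59 CPM in the CF libraries and 20.7 ± 3.58 in the WT libraries (SD, n = 4 each). The mean log2 CPM of the 13 markers was 2.95, 2.70, 2.75 and 2.54 in CF libraries 0 to 3 and 3.15, 3.09, 2.90 and 2.62 in WT libraries 0 to 3. Vip stood above this mean by 3.15, 2.88, 2.86 and 3.15 log2 units in CF libraries 0 to 3 and by 1.40, 1.64, 1.65 and 1.49 in WT libraries 0 to 3. The groups were apart on this scale, with a difference between their means of 1.47, and CF libraries 0 and 3 lay about level. That separation carries over the difference on which Vip was selected and is no further evidence for it. Gal stood above the neuron mean by 1.65 to 2.54 in CF and by 0.63 to 1.25 in WT, a difference of 0.92 without overlap.

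**Figure D4:**
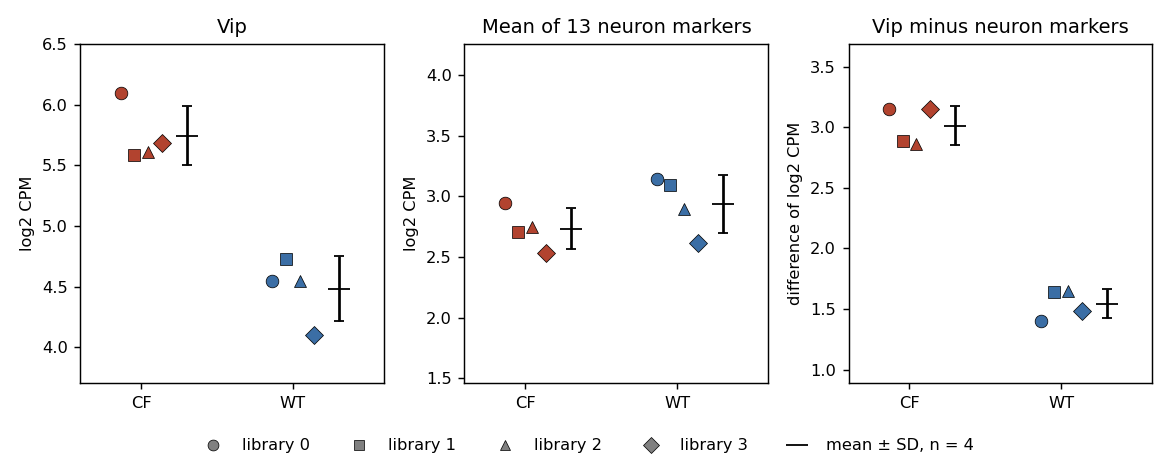
Vip, the mean of 13 neuron markers and the difference between them per library, in log2 CPM; the y axes span the same number of log2 units but start at different values, and bars are the mean ± SD of 4 libraries. CF libraries lie above WT libraries for Vip and for the difference, by 1.26 and 1.47, and not for the neuron markers.

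Markers of the other cell types are given next, and their part in the Vip difference was not tested. Of 4 smooth muscle genes tested all 4 had positive log2 fold changes, and the summed FPKM of the list was 1371 to 1883 in CF and 805 to 1372 in WT. Des, the muscle filament desmin, was at 1507 ± 338 CPM in the CF libraries and 770 ± 114 in the WT libraries (SD, n = 4 each, adjusted p = 0.0689, edgeR), and Acta2 at 879 ± 46.0 CPM in the CF libraries and 808 ± 169 in the WT libraries. Of 5 genes in the glial list 4 had negative log2 fold changes. Gfap, the glial filament gene named after its values were seen, had a positive one of 0.75 (SE 0.37). It was at 2.77 ± 1.41 CPM in the CF libraries and 1.65 ± 0.408 in the WT libraries. S100b was at 4.09 ± 0.182 CPM in the CF libraries and 5.97 ± 1.07 in the WT libraries, and the adhesion molecule Ncam1 at 17.2 ± 4.99 CPM in the CF libraries and 33.5 ± 9.07 in the WT libraries, with adjusted p-values of 0.202 and 0.149 in edgeR. The 3 genes of interstitial cells of Cajal, pacemaker cells of the gut, had sums of 8.37 to 12.4 FPKM in CF and 9.63 to 14.1 FPKM in WT. Kit and Ano1 had log2 fold changes of −0.19 and −0.01. The 6 enteroendocrine genes, which mark the hormone cells of the epithelium, summed to 89.8 to 128 FPKM in CF and 64.3 to 125 FPKM in WT, with log2 fold changes of −0.05 for Chga and −0.02 for Chgb. The 6 leukocyte and mast cell genes, which include Kit again, summed to 25.6 to 51.8 FPKM in CF and 26.7 to 56.9 FPKM in WT. Cd68 and Cpa3 of that list had log2 fold changes of 0.03 and −0.34. In the epithelial list all 6 log2 fold changes were positive, with a median of 0.14, and Krt20 and Fabp2 had log2 fold changes of 0.56 and 0.09. No gene of these 7 lists was at 0 in every library, and none passed the edgeR test or limma-voom. DESeq2, which called 3.1% of all loci, called 1 glial and 2 smooth muscle genes beside the neuron gene. At an unadjusted p of 0.05 edgeR had 2 glial, 1 interstitial, 2 smooth muscle, 1 epithelial and 1 enteroendocrine gene, and no leukocyte or mast cell gene, where 15.1% of all loci passed.

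The other neuropeptide genes had estimates in both directions. Of 18 entries 10 were tested, 6 with positive and 4 with negative log2 fold changes and a median of 0.11. None passed the edgeR test or limma-voom, and 4 were under an unadjusted p of 0.05 (15.1% of all loci were), 3 of them higher in CF. DESeq2 called 1, where it called 3.1% of all loci. By mean FPKM over all 8 libraries the most abundant were Nts (neurotensin), at 23.5 ± 4.02 CPM in the CF libraries and 30.6 ± 5.94 in the WT libraries, and Sst (somatostatin), at 18.1 ± 1.30 CPM in the CF libraries and 16.3 ± 2.88 in the WT libraries (SD, n = 4 each). Both are also made by enteroendocrine cells. The gene called by DESeq2 was Penk, the precursor of the enkephalins, named here after its values were seen. It was at 9.60, 5.92, 3.78 and 8.23 CPM in CF libraries 0 to 3 and at 3.65, 2.66, 2.84 and 1.98 CPM in WT libraries 0 to 3. Its CF libraries lay above its WT libraries, by little in CF library 2, and its log2 fold change of 1.30 (SE 0.30) was close to that of Vip, with an adjusted p of 0.101 in edgeR and 0.00301 in DESeq2. Among the edgeR fits with 1 library left out, only that without CF library 2, its lowest CF library, called it. The fit without CF library 0, its highest, did not.

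In the secretin family, to which VIP and PACAP belong, 3 of 4 other ligand genes were tested and had log2 fold changes of 0.06 for Gcg, −0.26 for Gip and 0.74 for Sct. None passed by edgeR or limma-voom. Sct was under an unadjusted p of 0.05 and called by DESeq2, as were 15.1% and 3.1% of all loci. Sct, which encodes the hormone secretin and is named here after its values were seen, was at 18.9, 14.2, 16.5 and 20.9 CPM in CF libraries 0 to 3 and at 7.91, 11.5, 10.6 and 12.3 CPM in WT libraries 0 to 3. The groups did not overlap, and the adjusted p was 0.101 in edgeR and 0.00867 in DESeq2. Of 5 tested receptor genes of the family 4 had negative log2 fold changes and none was called by edgeR, limma-voom or DESeq2, with 2 under an unadjusted p of 0.05, Glp2r and Gipr, both lower in CF, where 15.1% of all loci were under it. Glp2r, the receptor of the intestinal growth hormone GLP-2, had a log2 fold change of −0.34 (SE 0.14). Gipr, the receptor of the hormone GIP and named after its values were seen, had −0.76 (SE 0.28), with groups that did not overlap and an adjusted p of 0.256 in edgeR. Sctr, the secretin receptor, had −0.50 (SE 0.26) and was not under the unadjusted threshold.

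Receptors for the other transmitters had 5 positive and 11 negative log2 fold changes among 16 tested of 27, with a median of −0.12. None passed by edgeR or limma-voom, and 4 of the 16 were under an unadjusted p of 0.05, 2 in each direction, against 15.1% of all loci. DESeq2, which called 3.1% of all loci, called 1, Calcrl. Calcrl, the receptor shared by CGRP and adrenomedullin, was at 18.9 ± 3.30 CPM in the CF libraries and 28.6 ± 3.68 in the WT libraries (adjusted p = 0.127 in edgeR and 0.0265 in DESeq2), while Ramp1, its CGRP partner, was at 41.6 ± 7.11 CPM in the CF libraries and 32.3 ± 5.05 in the WT libraries (adjusted p = 0.302 in edgeR). The soluble guanylate cyclase that nitric oxide activates was represented by Gucy1a3 and Gucy1b3, the 2 tested of 6 entries. Both were under the unadjusted p of 0.05 that 15.1% of all loci passed, and lower in CF, with log2 fold changes of −0.74 (SE 0.16) and −0.42 (SE 0.17) and adjusted p-values of 0.0829 and 0.296 in edgeR, and DESeq2 called Gucy1a3 (adjusted p = 0.00372).

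Among 5 tested genes of peptide processing none was called by edgeR, limma-voom or DESeq2 and none was under an unadjusted p of 0.05. Pam, the enzyme that amidates VIP and other peptides, was at 135 ± 10.1 CPM in the CF libraries and 123 ± 9.51 in the WT libraries, and Cpe, a carboxypeptidase that trims peptides, at 53.7 ± 8.09 CPM in the CF libraries and 57.4 ± 7.03 in the WT libraries (SD, n = 4 each). Among 4 tested genes of small transmitter handling, of 11 entries, there was likewise no call by those tests and none under an unadjusted p of 0.05. Ddc, the aromatic amino acid decarboxylase, had −0.11 (SE 0.30) as its log2 fold change and Slc18a2, the vesicular monoamine transporter, 0.15 (SE 0.14).

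Genes of the cAMP pathway downstream of the VIP receptors had a median close to that of all loci. Of 23 tested genes of 26, 13 had positive and 10 negative log2 fold changes, with a median of 0.01. None passed by edgeR or limma-voom. Under an unadjusted p of 0.05 were 2 of the 23, 1 in each direction, a smaller share than the 15.1% of all loci. DESeq2 called 1, where it called 3.1% of all loci. Gnas, the stimulatory G protein, was at 363 ± 26.5 CPM in the CF libraries and 387 ± 13.9 in the WT libraries, and Prkar1a, a regulatory subunit of protein kinase A, at 142 ± 21.0 CPM in the CF libraries and 138 ± 5.63 in the WT libraries (SD, n = 4 each). The gene called by DESeq2 was the phosphodiesterase gene Pde8a, with a log2 fold change of 0.43 there. Of 6 genes of the secretory response none was called by edgeR, limma-voom or DESeq2 and none was under an unadjusted p of 0.05. Slc9a3r1, a scaffold that binds CFTR, was at 624 ± 181 CPM in the CF libraries and 459 ± 59.6 in the WT libraries, and the sodium-proton exchanger Slc9a3, which cAMP inhibits, at 253 ± 102 CPM in the CF libraries and 373 ± 112 in the WT libraries, with adjusted p-values of 0.367 and 0.448 in edgeR.

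Immediate early genes, which neuronal activity, cAMP and tissue handling all induce, were the list with the largest median. Of 10 tested 9 had positive log2 fold changes, with a median of 0.84, and 6 were under an unadjusted p of 0.05, as were 15.1% of all loci. By edgeR and by limma-voom 1 rose past an adjusted p of 0.05, and by DESeq2 6 did. Over all loci edgeR called 0.165% and DESeq2 3.1%, with 0.136% and 2.22% higher in CF, and limma-voom called 17 loci. Junb, an AP-1 subunit, was at 87.0, 87.6, 77.7 and 101 CPM in CF libraries 0 to 3 and at 39.9, 37.6, 42.2 and 40.6 CPM in WT libraries 0 to 3. The groups were far apart and each was narrow, with a log2 fold change of 1.14 (SE 0.10) and an adjusted p of 0.00147 in edgeR. Fos was at 80.0 ± 22.3 CPM in the CF libraries and 44.9 ± 10.3 in the WT libraries (SD, n = 4 each), with an adjusted p of 0.155 in edgeR. The groups overlapped, since CF library 0, the lowest CF library, was at 50.9 CPM and WT library 0 at 56.7 CPM. Among the edgeR fits with 1 library left out, only that without CF library 0 called Fos (adjusted p = 0.0414). The mean log2 CPM of the list was 4.40, 4.29, 4.13 and 4.13 in CF libraries 0 to 3 and 3.79, 3.16, 3.18 and 2.93 in WT libraries 0 to 3. The groups did not overlap. CF library 0 was the highest CF library and WT library 3 the lowest WT library, both for this mean and for Vip. That is not particular to this list, since the mean log2 CPM of the neuron, glial and interstitial cell markers had the same extremes. The orders within a group were not the same throughout. WT library 0 was the highest WT library for the immediate early genes and WT library 1 for Vip. Nr4a1, a gene of this list, is among the loci named below as closest to Vip over the 8 libraries. It is not among those named with the group means subtracted. The correlation over the 8 libraries carries over the difference on which Vip was selected. The part of these genes in the Vip difference was not tested.

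**Figure D5:**
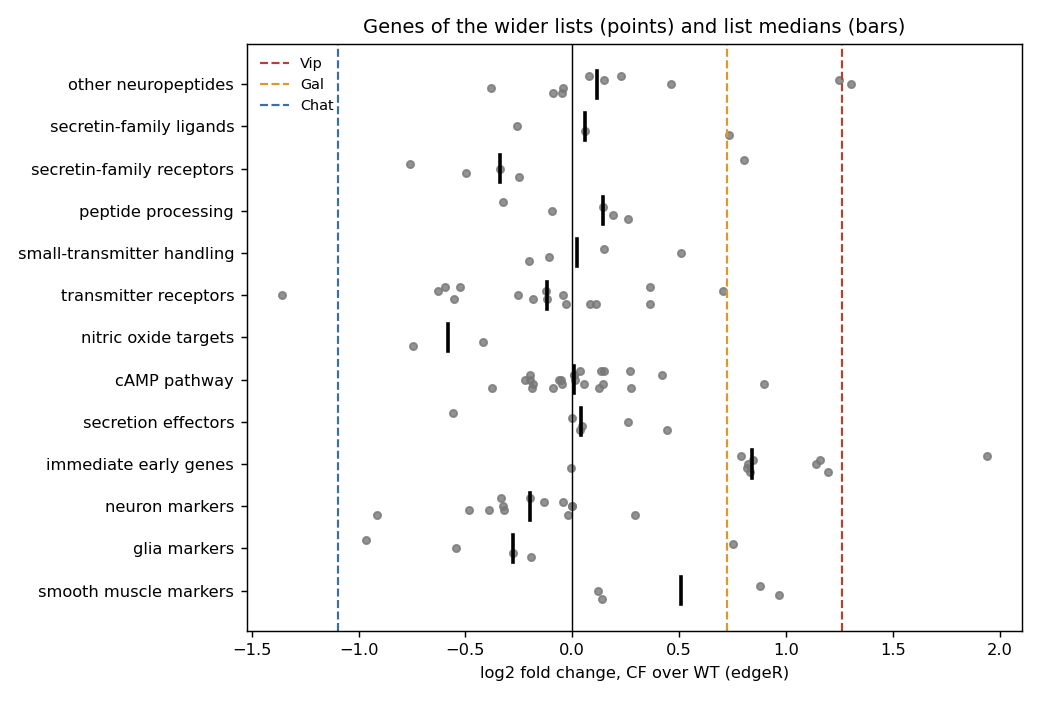
Log2 fold change, CF over WT, of each tested gene in 13 lists (points) with the list median (black bar); dashed lines mark Vip at 1.26, Gal at 0.72 and Chat at −1.10. Immediate early genes lie furthest to the right as a list, with a median of 0.84, while neuron markers centre on −0.20 and the cAMP pathway on 0.01.

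The genes whose log2 CPM followed Vip most closely over the 8 libraries, among 13728 tested loci with 1 symbol, were Etv5 (Pearson r = 0.97), Creb3l1 (0.96), Yaf2 (0.96), Smg5 (0.95) and Nr4a1 (0.95). With the group means subtracted the closest were Fam49a (0.99), Trpc4 (0.99), Yaf2 (0.99), Cenpc (0.98) and Tyms (0.98). These are the highest of many correlations over few libraries, which share depth and composition. Those over the 8 libraries also carry over the difference between CF and WT on which Vip was selected. Among the members, Gal and Cartpt had r = 0.83 and 0.71 with Vip over the 8 libraries, and 0.21 and 0.89 with the group means subtracted. For Chat these values were −0.90 and −0.54.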

How the data were processed

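Stranded mRNA sequencing was done on whole small intestine, flushed to remove digesta and mucus, per the labels' protocols. The submitters' processing notes name STAR 2.3.1z, Cuffdiff, StringTie, cutadapt and bcl2fastq, and build Rnor_6.0, with no order or settings. Expected counts came from the authors' deposited column of unscaled fragments for each library, per the file headers, and were rounded for the tests because 5.99% were fractional. FPKM, for libraries and for groups, are the authors' deposited values, per the file headers. 2 further columns of values per library were not used here. The table numbers the libraries 0 to 3 and the titles 1 to 4, so the group of each library is known but not its title, and each tie to a title was a placeholder that no result uses.

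Loci were kept by edgeR's filterByExpr (minimum count 10, minimum total 15), which left 16941 of 52753. The CF and WT libraries were tested against each other with edgeR's quasi-likelihood test (robust), with TMM scaling and Benjamini-Hochberg adjustment over all loci at 0.05. SEs are the log2 fold change over the square root of F, and CPM use TMM-scaled library sizes. Log2 CPM values have a prior count of 2. In simulated data with known changes the test recovered 24.0% of 1.5-fold, 60.4% of 2-fold, 71.7% of 3-fold and 90.0% of 4-fold changes. A gene that was not called may therefore still differ. Members and the 17 other lists, 10 of pathways and 7 of markers, were chosen with earlier results of these data known. Lists are described by counts and medians and were given no set test. Genes were matched by exact symbol, and the locus with most fragments was used where there were several. The text names the members, Cftr, every called gene and the 2 most abundant genes per length of each pathway list, the 2 most abundant of each marker list, and the 5 loci most correlated with Vip in each of the 2 ways; other genes were chosen after their values were seen. Promoter windows came from RefSeq (GRCr8) and matched all 10 members. Alternatives changed the scaling, filter, test, unit and libraries. Tests ran in R 4.3.3 with DESeq2 1.42.0, limma 3.58.1 and edgeR 4.0.16, and tables and figures in Python 3.11.15 with matplotlib 3.10.9 and pandas 2.3.3.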

Additional observations from a re-analysis of the deposited data

Results flagged for a closer look

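The check was made on CPM for 18 groups of 4 libraries, over the 9 members with fragments. By the size of its gap, a library stood apart from the other 3 in 2 of these groups. Chance flags about 1 group in 20. Vip in CF library 0 was at 68.5 CPM, with the next CF library at 51.3 and the lowest at 47.9 CPM, a gap of 0.836 of the group's range. On the authors' FPKM scale it was at 49.2, 45.8, 37.3 and 38.4 in CF libraries 0 to 3, where CF library 1 was close to CF library 0. CF library 0 also had the lowest epithelial sum, 4944 FPKM, the highest Tac1 and Cartpt, and the highest neuron marker sum, 75.3 FPKM. By mean log2 CPM the neuron markers were at 2.95 there, the highest of CF but below 3.15 and 3.09 in WT libraries 0 and 1. The part of these in the Vip level of CF library 0 was not tested. Without it the log2 fold change of Vip was 1.13. Tac1 in WT library 0 was at 4.99 CPM, with the other WT libraries from 7.48 to 7.92 CPM, a gap of 0.849 of the range. In FPKM it was at 7.60, 9.21, 9.14 and 10.9 in WT libraries 0 to 3, where WT library 0 was again lowest but stood less apart.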

How the results depend on the processing

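The log2 fold change of Vip was between 1.21 and 1.30 over 7 other scalings, filters, tests and units and between 1.13 and 1.35 with 1 library left out, and that of Vip over the neuron markers between 1.34 and 1.48 and between 1.42 and 1.52. Gal lay between 0.61 and 0.84 and Chat between −1.26 and −0.20, the last on log2(FPKM + 1), a scale that shrinks low genes; on log2(FPKM + 0.1) Chat was at −0.75. Nos1 changed sign, being positive in 7 and negative in 8 of 15 alternatives, from −0.26 to 0.47. The number of members called was 2 with no low-count filter and with DESeq2, and 0 to 1 with a library left out. The number of loci called, 28, was 553 with no low-count filter, 566 with DESeq2, 17 with limma-voom, 12 on log2(FPKM + 1), 15 on log2(FPKM + 0.1) and 11 with the replicate block, and 5 to 136 with a library left out. Leaving out CF library 0 gave 136, leaving out CF library 2 gave 77, and leaving out WT library 1, 2 or 3 gave 5, 5 and 6. Genes of the pathway lists called, 1 in the main test, numbered 8 with no filter, 11 with DESeq2, 0 on both FPKM scales and 1 to 4 with a library left out, namely 3 when CF library 0 was out, 4 when CF library 2 was out and 2 when WT library 0 was out. The cause of these moves was not tested. The replicate block used the library numbers of the table, for which the labels give no pairing. Deviations of same-numbered libraries from their group means correlated at 0.065, −0.106, 0.163 and −0.008, and those of other pairs at −0.146 to 0.188. With so few libraries these correlations cannot show whether libraries were paired. The block changed no call of a member. Depth limits Chat, with 10 to 32 fragments per library, and Adcyap1, with 2 to 11.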

Other observations

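Some transmitter receptors, chosen here after their values were seen, stood apart from the level of the list without passing the test. Tacr3, the neurokinin B receptor of enteric neurons, was at 0.579, 0.226, 0.692 and 0.249 CPM in CF libraries 0 to 3 and at 1.34, 1.55, 0.931 and 0.683 CPM in WT libraries 0 to 3. The groups overlapped by a narrow margin, with a log2 fold change of −1.36 (SE 0.43) and an adjusted p of 0.198 in edgeR. Depth limits Tacr3 too, with 4 to 13 fragments per library in CF and 10 to 31 in WT. Chrm1, the muscarinic M1 receptor of neurons, had an adjusted p of 0.227 at a log2 fold change of 0.71 (SE 0.24), with values of 2.41, 3.78, 5.27 and 4.24 CPM in CF libraries 0 to 3 and of 2.25 to 2.56 CPM in WT. Galr1, a galanin receptor, was at 2.94 to 3.23 CPM in CF and at 2.02 to 6.88 CPM in WT. Nefm, a neurofilament gene among the neuron markers, was at 2.80, 2.76, 2.93 and 2.09 CPM in CF libraries 0 to 3 and at 6.63, 4.77, 4.005 and 4.57 CPM in WT libraries 0 to 3, without overlap, with an adjusted p of 0.106.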
